A study of Homo sapiens with 24 samples.

Results

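The comparison is between AsPC-1 xenograft tumors collected 24 h and 2 h after the last dose of IK-595, 4 tumors at each time and 8 of the 24 tumors in the series. AsPC-1 is a human pancreatic ductal adenocarcinoma line, grown here as tumors in mice, and IK-595 is described in the labels as a molecular glue of MEK and RAF. The members were taken from the titles: 4 tumors 24 h after IK-595 and 4 tumors 2 h after IK-595, each mouse having had 3 doses of 6 mg/kg by mouth every other day. The time field of these treated tumors gives the same hours but counts them from a vehicle dose, which conflicts with the titles, and the titles were followed. For reference, 4 tumors collected 2 h after the last of 3 doses of vehicle (5% DMSO and 95% PEG400) are given beside them. Each tumor came from its own animal, and all tumors carry the genotype of 1 cell line. The series holds no vehicle tumors at 24 h, so the 24 h tumors are set against vehicle tumors collected at 2 h. Time since dosing therefore cannot be told apart from anything else that differed between the 2 collections, and the labels give no clock time.

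In the RAS-RAF-MEK-ERK pathway, ERK phosphorylates transcription factors of the ETS and AP-1 families and raises transcripts of its own inhibitors. Among these are the DUSP phosphatases, which remove phosphate from ERK, and the Sprouty proteins, which restrain signalling upstream of RAF. When MEK is blocked these short-lived transcripts fall within hours, so they serve as a readout of ERK activity, while cell-cycle transcripts follow more slowly. In pancreatic cancer the pathway is also known to sustain MYC, glycolysis and the supply of EGFR ligands.

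Total counts were 13.87 to 20.26 M in the 24 h tumors, 15.44 to 18.66 M in the 2 h tumors and 19.68 to 20.58 M in the vehicle tumors. All 12 markers fixed for epithelial pancreatic cancer cells, such as EPCAM and KRT19, passed the filter on low counts. Their summed level was 11369 to 15048 CPM at 24 h and 10172 to 14715 CPM at 2 h, CPM being read counts scaled to a common library size. Of 15 fibroblast and pericyte, 7 endothelial, 7 myeloid and 9 adipocyte, muscle and red cell markers tested, 0 differed between the times. Of all genes tested 2.05% did, so a count of 0 among so few markers says little. The counts are of human genes and the tumors grew in mice, so these markers do not measure host cells directly. The fibroblast and pericyte sum was 1452 to 4219 CPM at 24 h and 1112 to 6146 CPM at 2 h. The endothelial sum was 9.03 to 40.8 CPM at 24 h and 8.29 to 35.4 CPM at 2 h. The myeloid sum was 220, 628, 744 and 564 CPM in 24 h tumors 1 to 4 and 385 to 481 CPM at 2 h. PECAM1, CD3D, CD3E, CD2, MS4A1 and ADIPOQ were at 0 in the 8 tumors. The muscle, fat and red cell sum stood at 1820 CPM in 24 h tumor 4 against 67.9 to 92.0 CPM in the other 24 h tumors, and at 2388 CPM in 2 h tumor 1 against 10.1 to 29.2 CPM in the other 2 h tumors. Transcripts encoded by mitochondrial DNA took 27.0% of counts in 24 h tumor 1 and 10.3 to 12.5% in the other 24 h tumors, against 9.93 to 15.8% in the 2 h tumors. Counts of genes called without 24 h tumor 1, and without 24 h tumor 4 and 2 h tumor 1 together, are given beside the results they moved.

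At 24 h, 374 of 18242 genes tested (2.05%) differed from 2 h at an adjusted p under 0.05: 176 were higher at 24 h (0.965%) and 198 lower (1.09%). By comparison, 27.5% of genes differed from vehicle at 24 h and 26.9% at 2 h, both of these sharing tumors with the comparison of the times. Of the 374 genes, 90 were at least 2-fold higher and 54 at least 2-fold lower at 24 h. The tumors of the 2 times did not overlap for 335 of the 374 genes, and for 7.69% of all genes tested. These totals were sensitive to single tumors: the number higher was 341 without 24 h tumor 1, 111 without 24 h tumor 4, 77, 93 and 89 without 2 h tumor 2, 3 or 4. It was 95 without 24 h tumor 4 and 2 h tumor 1. The number lower was 107 and 96 without 24 h tumor 3 or 4, and 74, 84 and 70 without 2 h tumor 2, 3 or 4.

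ERK output and feedback genes rose. Of 10 transcripts used as a score of MAPK output, 7 were higher at 24 h than at 2 h and 0 lower, against 0.965% higher among all genes. Their median log2 fold change was 1.28, against 0.01 over all genes tested. The score, the mean log2 CPM of the 10 genes, was 5.38, 5.43, 5.90 and 5.54 in the 24 h tumors, 3.99, 4.05, 3.98 and 4.40 in the 2 h tumors, and 6.52 ± 0.04 in the vehicle tumors (SD, n = 4). The 24 h tumors thus lay between the other groups, without overlap with either. Against vehicle, 6 of the 10 genes were lower at 24 h, where 13.8% of all genes were, and 8 were lower at 2 h, where 13.6% of all genes were.

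SPRY4, a Sprouty inhibitor of receptor signalling to RAS and RAF, had 120, 66.8, 97.4 and 85.3 CPM at 24 h and 9.31, 11.7, 8.62 and 14.7 CPM at 2 h, against 159 ± 9.54 CPM in vehicle tumors (SD, n = 4). Every 24 h tumor was more than 4 times as high as the highest 2 h tumor, and all 4 were below the vehicle tumors. The log2 fold change was 3.05 ± 0.32 (SE, adjusted p = 9.31e-06). SPRY1 had 33.6, 33.4, 31.0 and 25.1 CPM at 24 h and 5.59, 6.93, 5.26 and 8.33 CPM at 2 h, and rose by 2.23 ± 0.17 on the log2 scale (adjusted p = 8.85e-08). Unlike SPRY4, it was above vehicle at 24 h (19.8 ± 3.44 CPM in vehicle tumors, log2 fold change 0.64 against vehicle, adjusted p = 0.00597). SPRY2 rose by 1.41 ± 0.21 (adjusted p = 0.000449), to 35.9 ± 6.58 CPM at 24 h, against 13.5 ± 3.64 CPM at 2 h (SD, n = 4 each). In all, 3 of 7 Sprouty and SPRED genes were higher at 24 h and 0 lower, where 0.965% of all genes were higher. Among the 4 that did not pass, SPRED2 had a log2 fold change of 0.62 (adjusted p = 0.113).

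DUSP6, the cytoplasmic phosphatase that acts on ERK, had 100.2, 83.8, 120 and 120 CPM at 24 h and 16.1, 22.4, 14.3 and 25.9 CPM at 2 h, against 255 ± 24.0 CPM in vehicle tumors (SD, n = 4). DUSP4, a nuclear phosphatase of ERK and related kinases, had 75.9, 77.8, 124 and 85.9 CPM at 24 h and 14.2, 16.01, 15.2 and 22.6 CPM at 2 h, against 237 ± 42.2 CPM in vehicle tumors. For both genes the 24 h tumors were above every 2 h tumor and below every vehicle tumor. DUSP6 rose by 2.43 ± 0.32 on the log2 scale (adjusted p = 0.000177) and DUSP4 by 2.42 ± 0.31 (adjusted p = 0.000132). These were 2 of 9 DUSP genes tested, with 0 lower, where 0.965% of all genes were higher. DUSP7, a cytoplasmic phosphatase of ERK, averaged 64.6 CPM at 24 h and 37.2 CPM at 2 h and did not pass (log2 fold change 0.80, adjusted p = 0.0723). RGS2, which speeds the shut-off of G-protein signalling, had 117, 96.7, 180 and 169 CPM at 24 h and 25.9, 20.7, 31.5 and 37.3 CPM at 2 h, with no overlap (log2 fold change 2.29 ± 0.22, adjusted p = 2.98e-06).

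The other genes of the score moved less or did not pass. EPHA2, a receptor tyrosine kinase for ephrins, rose by 1.38 ± 0.26 (adjusted p = 0.00613), to 167 ± 39.7 CPM at 24 h, against 64.2 ± 31.0 CPM at 2 h (SD, n = 4 each). PHLDA1, a pleckstrin-domain gene, rose by 1.18 ± 0.22 (adjusted p = 0.00422), to 70.3 ± 19.0 CPM at 24 h, against 31.0 ± 7.01 CPM at 2 h (SD, n = 4 each). PHLDA1 at 24 h was still a log2 of -1.998 from vehicle (281 ± 20.3 CPM). CCND1, the cyclin D1 gene that couples growth signals to the cell cycle, averaged 208 ± 42.8 CPM at 24 h and 104 ± 21.6 CPM at 2 h (log2 fold change 0.999 ± 0.232, adjusted p = 0.0229). That call was lost without 24 h tumor 3 or 4 (adjusted p = 0.0851 and 0.0539) and without 2 h tumor 2 or 4 (adjusted p = 0.0829 and 0.0997). It was also lost without 24 h tumor 4 and 2 h tumor 1 together (adjusted p = 0.0873). The call of EPHA2 was lost when only the 8 tumors were fitted (adjusted p = 0.0911). The ETS factor genes ETV5 and ETV4 did not pass. ETV5 had 9.30 to 12.4 CPM at 24 h and 5.36 to 8.01 CPM at 2 h (log2 fold change 0.66, adjusted p = 0.319). ETV4 had 42.9 to 54.7 CPM at 24 h and 30.8 to 41.6 CPM at 2 h (0.37, adjusted p = 0.369). EPHA4, another ephrin receptor, was at 0.552 to 2.62 CPM at 24 h and 0.564 to 1.37 CPM at 2 h, with overlap.

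**Figure D1:**
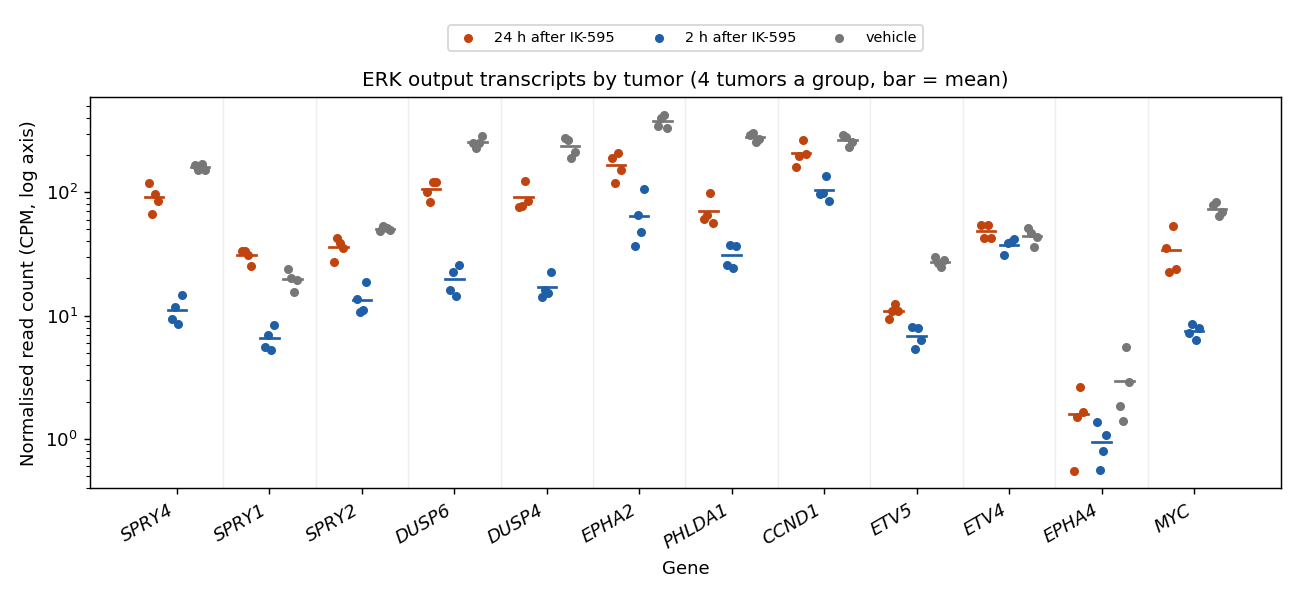
Normalised read count (CPM, log axis) of the 10 MAPK output genes, SPRY1 and MYC in each tumor, with a bar at the group mean (n = 4 tumors a group). The 24 h tumors sit between the 2 h and the vehicle tumors for SPRY4, DUSP6, DUSP4, PHLDA1 and MYC, and above the vehicle tumors for SPRY1.

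Start-site sequences are shown for the 2 largest rises of the score with 1 promoter in the RefSeq table, and for EPHA2 because it holds a cAMP response element. Each runs from 250 bases before to 50 after the start, 5′ to 3′ on the gene's strand, from RefSeq on GRCh38.p14; capitals mark motif matches.
SPRY4 promoter, chr5:142324198-142324497, minus strand: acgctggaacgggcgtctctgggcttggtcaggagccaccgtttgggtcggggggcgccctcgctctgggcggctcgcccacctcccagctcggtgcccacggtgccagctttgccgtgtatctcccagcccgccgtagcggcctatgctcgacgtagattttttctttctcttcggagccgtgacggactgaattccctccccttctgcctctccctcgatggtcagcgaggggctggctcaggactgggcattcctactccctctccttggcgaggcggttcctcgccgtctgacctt
DUSP6 promoter, chr12:89352452-89352751, minus strand: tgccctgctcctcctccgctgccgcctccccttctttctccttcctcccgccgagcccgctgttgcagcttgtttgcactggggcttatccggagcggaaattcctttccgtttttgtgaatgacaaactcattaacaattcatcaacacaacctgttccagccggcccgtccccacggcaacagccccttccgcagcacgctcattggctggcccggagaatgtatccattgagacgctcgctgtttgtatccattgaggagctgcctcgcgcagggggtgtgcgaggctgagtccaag
EPHA2 promoter, chr1:16156020-16156319, minus strand: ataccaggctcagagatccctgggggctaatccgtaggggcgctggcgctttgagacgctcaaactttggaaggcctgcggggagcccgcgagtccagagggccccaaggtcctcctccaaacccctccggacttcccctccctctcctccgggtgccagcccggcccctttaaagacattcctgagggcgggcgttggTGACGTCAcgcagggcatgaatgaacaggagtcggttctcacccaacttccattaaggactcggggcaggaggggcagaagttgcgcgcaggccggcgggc
The motifs searched on both strands were the ETS core CCGGAA, the cAMP response element TGACGTCA, the AP-1 site TGANTCA and the CArG box bound by SRF. They occur in 17.25%, 1.848%, 7.709% and 1.293% of 35116 promoters of the same length. SPRY4 and DUSP6 held none of the 4 in these windows, and EPHA2 held TGACGTCA at -51 to -44. Only exact matches to these patterns were searched, so other forms of the sites were not counted. The SPRY4 window lies inside the annotated gene, which begins at 142326455 on the minus strand, so its outermost start was not searched. Of 16 genes that belonged to the score or to the largest rises and were higher at 24 h, 9 had a single entry in the table. Of these 9, 1 held the ETS core, 1 the cAMP response element, 0 the AP-1 site and 0 the CArG box. Since EPHA2 was shown for its match, that match says nothing about the other genes that rose.

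Some immediate early genes and EGFR ligand genes rose as well. MYC, the transcription factor gene downstream of ERK, had 35.6, 22.7, 53.2 and 23.7 CPM at 24 h and 7.20, 8.63, 6.36 and 7.88 CPM at 2 h, against 73.7 ± 8.70 CPM in vehicle tumors (SD, n = 4). All 24 h tumors were above the 2 h tumors and below the vehicle tumors (24 h against 2 h, log2 fold change 2.166 ± 0.263, adjusted p = 5.94e-05). KLF6, a zinc-finger transcription factor gene, rose by 1.08 ± 0.13 (adjusted p = 5.04e-05), to 556 ± 49.6 CPM at 24 h, against 263 ± 43.8 CPM at 2 h. Its level at 24 h did not differ from vehicle at the threshold (509 ± 43.8 CPM, adjusted p = 0.483). JUN, an AP-1 subunit, rose by 1.02 ± 0.21 (adjusted p = 0.0112), a call lost without 24 h tumor 3 or 4 (adjusted p = 0.0541 and 0.0539) and when only the 8 tumors were fitted (adjusted p = 0.0670). It was also lost without 24 h tumor 4 and 2 h tumor 1 together (adjusted p = 0.110). In the list of 28 immediate early genes, 4 were higher and 0 lower, where 0.965% of all genes were higher, the fourth being EGR2. The median log2 fold change was 0.33, and 22 of the 28 point estimates were above 0. The count of 4 was 7 with DESeq2, 2 when only the 8 tumors were fitted, and 2 to 6 without single tumors, with 2 without 24 h tumor 3 and 6 without 24 h tumor 1. EGR2, a zinc-finger gene of the EGR1 family, was low throughout, at 0.289 to 2.23 CPM at 24 h and 0.0563 to 0.372 CPM at 2 h, with overlap. EGR2 lost its call without 24 h tumor 3 (adjusted p = 0.108) and without 2 h tumor 2, 3 or 4 (0.0885 to 0.103). EGR1, the prototype of these genes, had 11.4, 4.76, 15.5 and 8.67 CPM at 24 h and 3.10, 4.12, 1.71 and 3.60 CPM at 2 h, against 48.0 ± 16.9 CPM in vehicle tumors. It did not pass (log2 fold change 1.68, adjusted p = 0.0777).

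Of 9 genes for EGFR ligands and receptors, 3 ligand genes were higher at 24 h and 0 genes lower, where 0.965% of all genes were higher. EREG (epiregulin) had 20.3, 16.8, 26.1 and 12.4 CPM at 24 h and 4.66, 4.96, 5.26 and 6.59 CPM at 2 h (log2 fold change 1.81 ± 0.29, adjusted p = 0.00131). HBEGF had 10.49, 9.86, 13.02 and 8.49 CPM at 24 h and 2.55, 4.12, 3.42 and 4.78 CPM at 2 h (1.49 ± 0.30, adjusted p = 0.00833). AREG (amphiregulin) had 42.3, 24.4, 30.1 and 23.4 CPM at 24 h and 6.27, 14.3, 11.1 and 18.5 CPM at 2 h (1.25 ± 0.24, adjusted p = 0.00527). The call of AREG was lost when only the 8 tumors were fitted (adjusted p = 0.122). For each of the 3 ligands the lowest 24 h tumor was above the highest 2 h tumor. At 24 h EREG was below vehicle (33.2 ± 12.1 CPM, log2 fold change -0.82 against vehicle, adjusted p = 0.0320). AREG and HBEGF were not called against vehicle at 24 h (log2 fold change -0.35 and -0.26, adjusted p = 0.269 and 0.541).

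A second group of secreted factors rose as well. In the list of 18 CXCL chemokine, interleukin and STAT3 genes, 7 were higher at 24 h than at 2 h and 0 lower, where 0.965% of all genes were higher (median log2 fold change 0.53), and the count was 6 to 8 under every alternative tried. CXCL5, a neutrophil-attracting chemokine, had 274, 787, 1287 and 506 CPM at 24 h and 183, 128, 127 and 100.5 CPM at 2 h (log2 fold change 2.41 ± 0.36, adjusted p = 0.000753). The 24 h tumors were spread over more than 4-fold but lay above all the 2 h tumors. CXCL1, CXCL2 and CXCL3, neighbouring genes whose products bind the same receptor, rose by 1.69 ± 0.20 (adjusted p = 5.04e-05), 1.39 ± 0.25 (adjusted p = 0.00318) and 1.42 ± 0.22 (adjusted p = 0.000822). CXCL3 had 39.9, 36.8, 47.0 and 32.7 CPM at 24 h and 14.8, 16.1, 12.1 and 15.4 CPM at 2 h. CXCL8, the relative best known as interleukin 8, had 5.91 ± 2.81 CPM at 24 h and 3.55 ± 1.07 CPM at 2 h and did not pass (adjusted p = 0.261).

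LIF, a cytokine that signals through STAT3, had 318, 192, 281 and 220 CPM at 24 h and 52.5, 63.8, 68.2 and 87.0 CPM at 2 h (log2 fold change 1.90 ± 0.18, adjusted p = 2.06e-06). CCL20, a chemokine for CCR6-bearing cells, averaged 210 ± 66.7 CPM at 24 h and 102 ± 11.5 CPM at 2 h (1.05 ± 0.21, adjusted p = 0.00776). That call was lost when only the 8 tumors were fitted (adjusted p = 0.0803) and without 24 h tumor 4 and 2 h tumor 1 (adjusted p = 0.0612). IL18, a cytokine stored in epithelial cells, averaged 222 ± 34.7 CPM at 24 h and 112 ± 6.90 CPM at 2 h (0.98 ± 0.15, adjusted p = 0.000662). CXCL5, CXCL1, CXCL2, CXCL3, CCL20 and IL18 were above vehicle at 24 h by 2.22, 1.08, 1.95, 2.22, 1.30 and 0.89 on the log2 scale (adjusted p = 0.000416 or less in each), while LIF was not called (0.32, adjusted p = 0.170). At 2 h these genes stood differently against vehicle. LIF and CXCL1 were lower at 2 h than in vehicle tumors (log2 fold change -1.58 and -0.60, adjusted p = 3.45e-06 and 0.0296), and CXCL3 was higher (0.80, adjusted p = 0.0101). CXCL5, CXCL2, CCL20 and IL18 did not pass at 2 h (-0.19, 0.56, 0.25 and -0.10, adjusted p from 0.101 to 0.717). CXCL8 was below vehicle at both times (-1.07 at 24 h and -1.81 at 2 h, adjusted p = 0.0110 and 0.000311). Of the 18 genes of the list, 7 were higher and 2 lower than vehicle at 24 h (13.7% and 13.8% of all genes). At 2 h, 1 was higher and 5 lower (13.4% and 13.6% of all genes). The myeloid marker sums given above overlapped between the times only through 24 h tumor 1. In the other 24 h tumors the sums were above every 2 h tumor. The mean log2 CPM of the 7 myeloid markers tested overlapped more widely. It was 2.88, 2.93, 3.81 and 3.75 in 24 h tumors 1 to 4. In 2 h tumors 1 to 4 it was 3.59, 2.77, 2.85 and 3.05. Of these 7 markers, 0 were called between the times, where 2.05% of all genes were. The part of host cells in the chemokine and cytokine values was not tested.

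**Figure D2:**
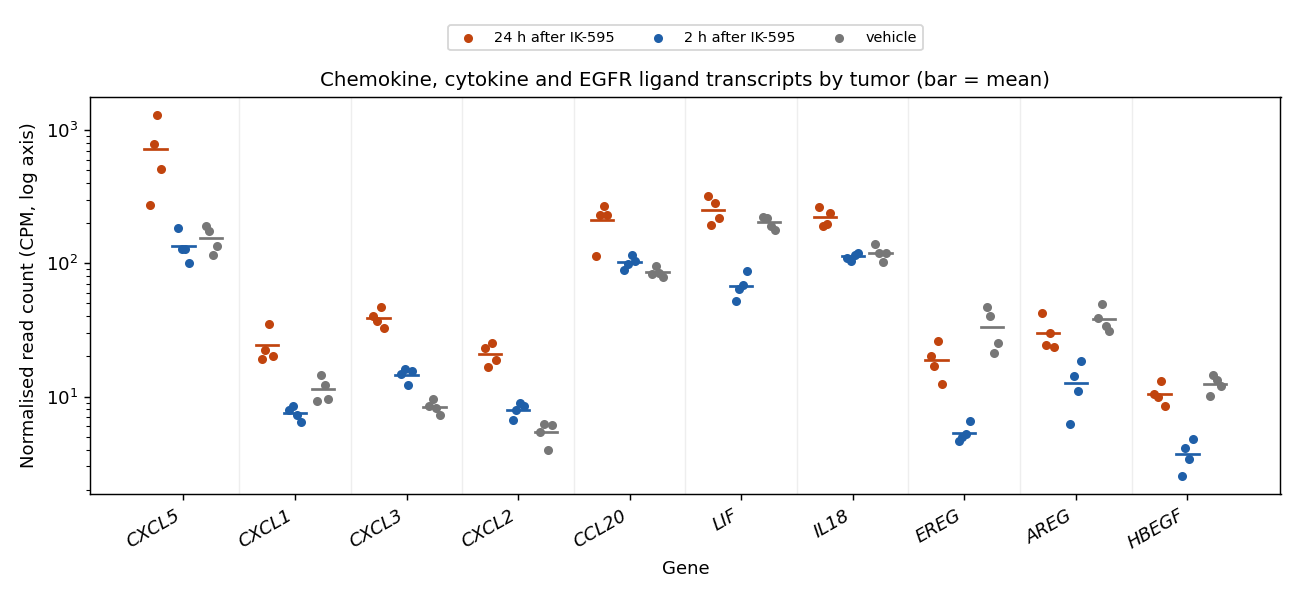
Normalised read count (CPM, log axis) of chemokine, cytokine and EGFR ligand genes in each tumor, with a bar at the group mean (n = 4 tumors a group). For LIF, EREG, AREG and HBEGF the 2 h tumors lie below the vehicle tumors; for CXCL5, CXCL2, CXCL3, CCL20 and IL18 the 24 h tumors lie above them.

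The promoters of the 4 CXCL genes that rose are shown because they share a run of 11 bases, the longest run common to all 4. CXCL1, CXCL2 and CXCL3 were added, and the run looked for, after sequences and values were seen.
CXCL5 promoter, chr4:73998628-73998927, minus strand: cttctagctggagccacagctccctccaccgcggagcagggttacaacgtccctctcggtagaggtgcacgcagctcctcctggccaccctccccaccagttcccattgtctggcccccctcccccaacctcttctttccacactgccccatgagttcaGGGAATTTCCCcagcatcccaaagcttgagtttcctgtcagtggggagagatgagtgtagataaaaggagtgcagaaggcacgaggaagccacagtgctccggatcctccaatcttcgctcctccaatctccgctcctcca
CXCL1 promoter, chr4:73869143-73869442, plus strand: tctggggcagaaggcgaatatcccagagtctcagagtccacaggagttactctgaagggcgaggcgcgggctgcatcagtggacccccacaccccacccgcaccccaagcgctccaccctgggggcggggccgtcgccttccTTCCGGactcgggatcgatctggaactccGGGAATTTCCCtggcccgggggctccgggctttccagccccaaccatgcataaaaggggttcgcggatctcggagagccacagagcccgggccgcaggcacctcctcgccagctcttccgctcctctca
CXCL2 promoter, chr4:74099146-74099445, minus strand: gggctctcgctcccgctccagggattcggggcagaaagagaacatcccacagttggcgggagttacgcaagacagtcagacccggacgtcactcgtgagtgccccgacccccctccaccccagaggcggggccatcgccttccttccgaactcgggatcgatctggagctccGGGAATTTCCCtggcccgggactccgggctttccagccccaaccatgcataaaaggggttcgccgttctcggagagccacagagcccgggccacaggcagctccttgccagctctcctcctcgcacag
CXCL3 promoter, chr4:74038640-74038939, minus strand: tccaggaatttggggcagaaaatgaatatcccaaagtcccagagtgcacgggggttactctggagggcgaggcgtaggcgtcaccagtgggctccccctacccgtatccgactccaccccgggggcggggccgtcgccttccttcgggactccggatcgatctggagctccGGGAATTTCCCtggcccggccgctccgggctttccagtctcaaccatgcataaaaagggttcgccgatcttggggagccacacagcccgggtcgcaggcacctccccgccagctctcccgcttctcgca
Capitals mark the run GGGAATTTCCC, which has the form of an NF-κB site and was searched on both strands, and in CXCL1 also an ETS core on the other strand at -108 to -103. Counted from the start, the run lies at -91 to -81 in CXCL5, -79 to -69 in CXCL1, -78 to -68 in CXCL2 and -79 to -69 in CXCL3. It occurs in 0.07689% of the 35116 promoters. Since the run was defined as what these 4 called genes share, its presence in them says nothing about the other genes that rose. CXCL1, CXCL2 and CXCL3 are near copies of each other, so their promoters are not independent examples.

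**Figure D3:**
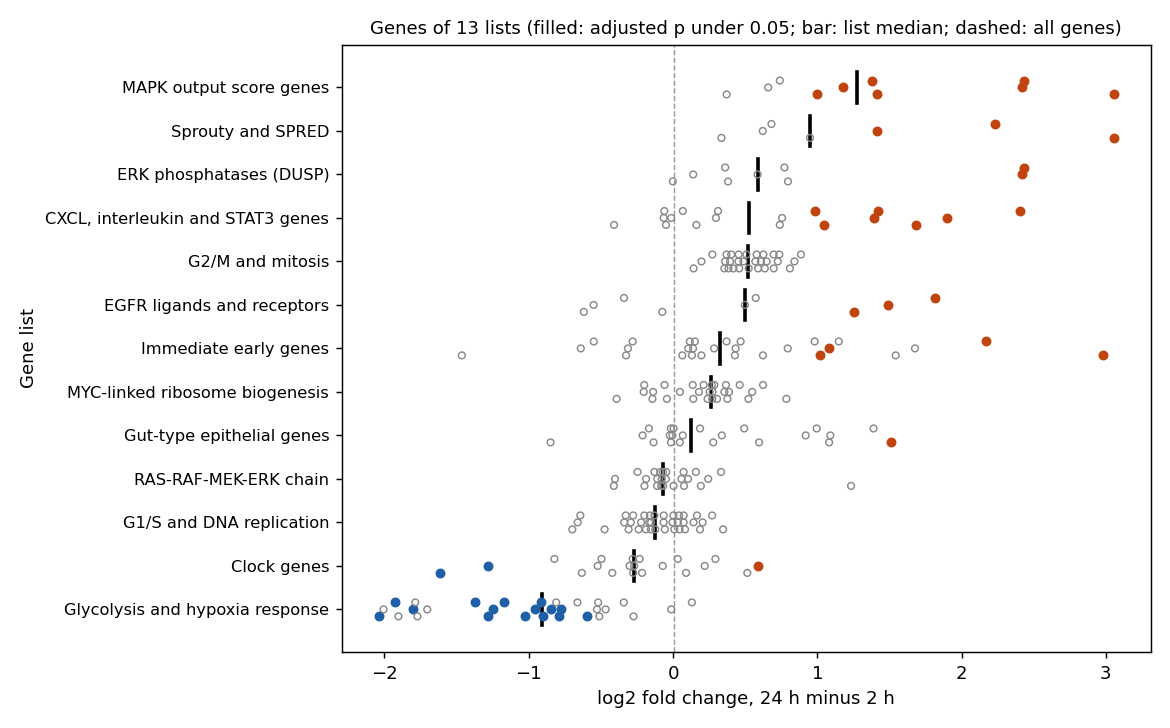
Log2 fold change (24 h minus 2 h) of every tested gene in 13 gene lists; filled points have an adjusted p under 0.05, black bars are list medians and the dashed line is the median of all genes. MAPK output lies highest (median 1.28) and glycolysis and hypoxia response lowest (-0.91), and the G2/M list has 30 open points that are all above 0.

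Most replication genes were below vehicle at both times, and 0 passed the test between the times. Of 37 G1/S and DNA replication genes, 0 differed between 24 h and 2 h by edgeR, 0 also at an unadjusted p under 0.05, with a median log2 fold change of -0.12. Of all 18242 genes tested, 1201 were higher and 1244 lower at that unadjusted threshold. Against vehicle 30 of the 37 were lower at 24 h (13.8% of all genes were) and 27 were lower at 2 h (13.6% of all genes), with medians of -1.19 at 24 h and -1.11 at 2 h. MCM7, a subunit of the replicative helicase, averaged 96.2 ± 22.6 CPM at 24 h and 94.0 ± 13.1 CPM at 2 h, against 175 ± 34.6 CPM in vehicle tumors (SD, n = 4 each). PCNA, the sliding clamp of DNA polymerase, had 48.1, 45.5, 70.9 and 47.9 CPM at 24 h and 74.9, 75.3, 71.0 and 47.5 CPM at 2 h, overlapping between the times (log2 fold change -0.34, adjusted p = 0.642). MCM4, another helicase subunit, differed by less than 0.01 in size on the log2 scale, with a standard error of 0.24. POLE, the leading-strand polymerase, averaged 65.2 CPM at 24 h, 68.2 CPM at 2 h and 70.1 CPM in vehicle tumors.

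The G2/M and mitosis list behaved differently in its point estimates. All 30 genes lay above 0 (9351 of 18242 did among all genes), with a median log2 fold change of 0.52, yet 0 passed by edgeR. At an unadjusted p under 0.05, 8 of the 30 were higher, where 1201 of all 18242 genes were. The list's mean log2 CPM was 4.04, 3.95, 4.76 and 4.30 in the 24 h tumors and 3.96, 4.19, 3.46 and 3.34 in the 2 h tumors, against 5.43 ± 0.40 in vehicle tumors (SD, n = 4). The times overlapped: 2 h tumor 2 was above 24 h tumors 1 and 2. MKI67, the gene of the proliferation antigen Ki-67, had 97.4, 83.7, 151 and 102 CPM at 24 h and 69.4, 82.6, 49.2 and 41.0 CPM at 2 h (log2 fold change 0.84 ± 0.39, adjusted p = 0.355), against 256 ± 69.8 CPM in vehicle tumors. TOP2A, the mitotic topoisomerase gene, had 45.7 to 78.5 CPM at 24 h and 34.7 to 71.6 CPM at 2 h (0.36 ± 0.35, adjusted p = 0.760). CCNB1, CENPF and TPX2 had log2 fold changes of 0.81, 0.89 and 0.63, with adjusted p from 0.251 to 0.493. Against vehicle 26 of the 30 genes were lower at 24 h and 30 at 2 h, where 13.8% of all genes were lower at 24 h and 13.6% at 2 h. The list of 17 G1 cyclins, CDKs and inhibitors held 2 genes higher at 24 h and 0 lower, where 0.965% of all genes were higher. They were CCND1 and CDKN1A, the gene of the CDK inhibitor p21. CDKN1A had 59.2, 115, 181 and 120 CPM at 24 h and 37.1, 52.5, 49.97 and 59.0 CPM at 2 h (1.26 ± 0.25, adjusted p = 0.00833). The call was lost when only the 8 tumors were fitted (adjusted p = 0.0878) and without 24 h tumor 4 and 2 h tumor 1 (adjusted p = 0.0570).

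Glycolysis and hypoxia-response genes fell. Of 30 genes in that list, 15 were lower at 24 h than at 2 h and 0 higher, where 1.09% of all genes were lower, and 29 had point estimates below 0 (median log2 fold change -0.91). GAPDH had 1652, 1794, 1562 and 1950 CPM at 24 h and 2773, 3231, 3104 and 3375 CPM at 2 h, without overlap (log2 fold change -0.84 ± 0.13, adjusted p = 0.000960), against 2835 ± 182 CPM in vehicle tumors (SD, n = 4). ENO1, enolase, averaged 649 ± 120 CPM at 24 h and 1122 ± 71.3 CPM at 2 h (-0.79 ± 0.13, adjusted p = 0.00204). PFKP, a platelet-type phosphofructokinase, averaged 243 ± 64.0 CPM at 24 h and 458 ± 83.5 CPM at 2 h (-0.91 ± 0.17, adjusted p = 0.00350). GPI, which converts glucose 6-phosphate to fructose 6-phosphate, fell by 1.03 ± 0.20 (adjusted p = 0.00650). LDHA, lactate dehydrogenase, had 873, 2021, 1814 and 1778 CPM at 24 h and 3036 to 3268 CPM at 2 h (-0.95 ± 0.19, adjusted p = 0.00776). The calls of ENO1, PFKP, GPI and LDHA were lost when only the 8 tumors were fitted (adjusted p from 0.0599 to 0.122).

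Hypoxia-response genes of the list varied between tumors. CA9, a carbonic anhydrase induced by HIF-1, had 28.2, 59.3, 8.11 and 28.5 CPM at 24 h and 65.2, 144, 102 and 201 CPM at 2 h (log2 fold change -2.04 ± 0.52, adjusted p = 0.0468), and 92.3 ± 28.0 CPM in vehicle tumors. PFKFB4, a kinase that makes fructose 2,6-bisphosphate, had 12.6, 19.0, 3.89 and 8.89 CPM at 24 h and 26.0, 35.3, 34.3 and 59.6 CPM at 2 h (-1.80 ± 0.41, adjusted p = 0.0238). The call of CA9 was lost without 24 h tumor 1, 3 or 4 or 2 h tumor 2, 3 or 4 (adjusted p from 0.0762 to 0.167). That of PFKFB4 was lost without 24 h tumor 3 or 4 or 2 h tumor 2 or 4 (0.0567 to 0.104). PGK1, phosphoglycerate kinase, had 179, 889, 574 and 456 CPM at 24 h and 711 to 1190.4 CPM at 2 h and did not pass (-0.81, adjusted p = 0.253). The count of 15 was 20 with DESeq2, 18 with limma-voom and 7 with no low-count filter. On log2(TPM + 1) and log2(TPM + 0.1) it was 6 and 3. It was 1 when only the 8 tumors were fitted, and 9, 7 and 8 without 24 h tumor 1, 3 or 4. It was 7, 9 and 6 without 2 h tumor 2, 3 or 4, and 9 without 24 h tumor 4 and 2 h tumor 1. Against vehicle, 14 of the 30 were lower and 1 higher at 24 h (13.8% and 13.7% of all genes), while 2 were lower and 4 higher at 2 h (13.6% and 13.4% of all genes). GAPDH kept its call in every fit tried; oxygen supply and necrosis were not measured.

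**Figure D4:**
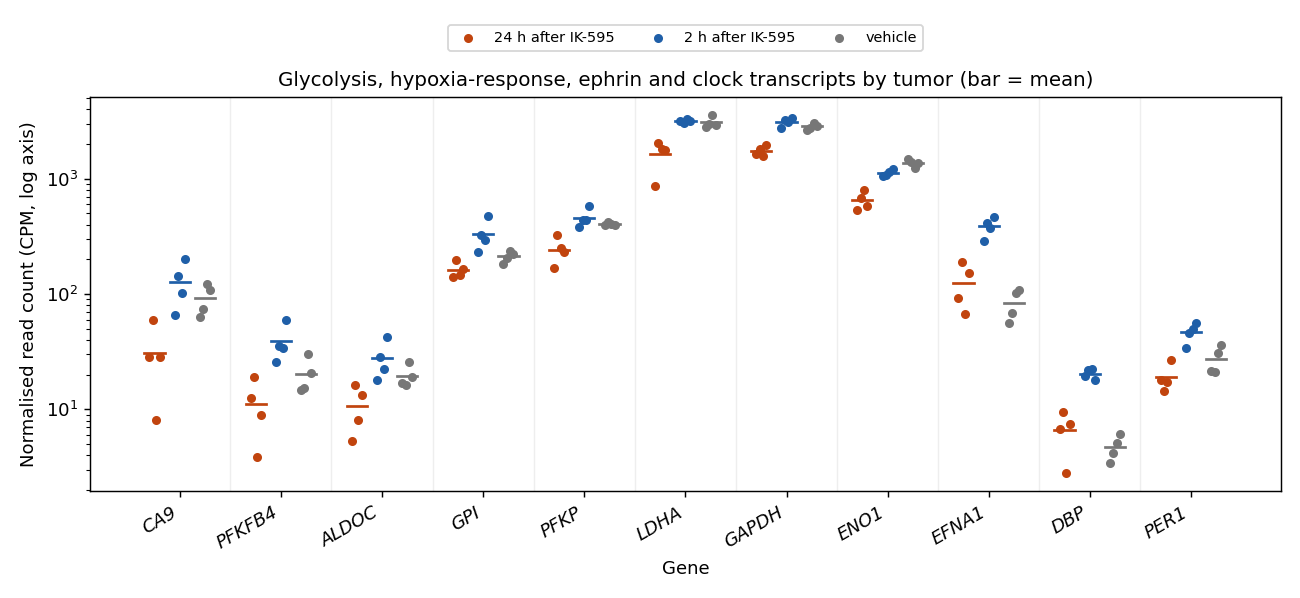
Normalised read count (CPM, log axis) of glycolysis and hypoxia-response genes, EFNA1 and 2 clock genes in each tumor, with a bar at the group mean (n = 4 tumors a group). For every gene shown the 24 h tumors lie below the 2 h tumors, and for EFNA1, DBP and PER1 the 2 h tumors are mostly above the vehicle tumors.

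A pair of clock genes, DBP and PER1, fell at 24 h. DBP, a transcription factor driven directly by the CLOCK-BMAL1 pair, had 6.70, 9.52, 2.81 and 7.53 CPM at 24 h and 19.4, 21.9, 22.4 and 18.0 CPM at 2 h, against 4.73 ± 1.18 CPM in vehicle tumors (SD, n = 4). The 2 h tumors were thus above both other groups (24 h against 2 h, log2 fold change -1.62 ± 0.28, adjusted p = 0.00223). PER1, a repressor of that pair, had 18.1, 14.4, 17.2 and 26.8 CPM at 24 h and 34.3, 46.2, 49.4 and 56.0 CPM at 2 h (-1.28 ± 0.23, adjusted p = 0.00284), against 27.5 ± 7.54 CPM in vehicle tumors. NR1D1, the REV-ERBα gene, pointed the same way without passing (-0.82, adjusted p = 0.0711). In the list of 20 clock genes, 2 were lower and 1 higher, where 1.09% of all genes were lower and 0.965% higher. The higher one, NPAS2, averaged 131 ± 14.9 CPM at 24 h and 87.1 ± 12.7 CPM at 2 h (0.59 ± 0.15, adjusted p = 0.0394). That call was lost without 24 h tumor 1, 3 or 4 or any 1 of the 2 h tumors (adjusted p from 0.0537 to 0.0997). The clock hour of collection and the time after dosing cannot be told apart between these groups.

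Among cell-surface and signalling genes, EFNA1, the ephrin A1 ligand of EPHA2, had 92.3, 191, 66.8 and 153 CPM at 24 h and 286, 415, 373 and 468 CPM at 2 h, against 84.1 ± 25.9 CPM in vehicle tumors (SD, n = 4). It fell by 1.61 ± 0.33 on the log2 scale (adjusted p = 0.0112), so that EPHA2 and its ligand changed in opposite directions. EFNA5 fell by 0.87 ± 0.16 (adjusted p = 0.00350). AXL, a receptor tyrosine kinase linked to drug tolerance, had 43.7, 91.3, 47.0 and 72.1 CPM at 24 h and 142, 148, 139 and 152 CPM at 2 h (-1.19 ± 0.21, adjusted p = 0.00270). It was the only 1 of 20 other receptor kinases and adaptors to pass, where 1.09% of all genes were lower. VIM, the vimentin gene of the mesenchymal state, averaged 1125 ± 32.7 CPM at 24 h, 1845 ± 133 CPM at 2 h and 2902 ± 229 CPM in vehicle tumors (24 h against 2 h, -0.71 ± 0.15, adjusted p = 0.0104). It was the only call among 20 epithelial and mesenchymal genes, where 1.09% of all genes were lower. That call was lost when only the 8 tumors were fitted (adjusted p = 0.0547) and without 24 h tumor 4 and 2 h tumor 1 (adjusted p = 0.0614).

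Several other genes were called. In the list of 21 genes of ATF4 and amino acid supply, 1 was higher and 1 lower, where 0.965% of all genes were higher and 1.09% lower. DDIT3, the stress gene that encodes CHOP, averaged 25.1 ± 3.62 CPM at 24 h and 58.5 ± 20.03 CPM at 2 h (log2 fold change -1.22 ± 0.23, adjusted p = 0.00569). CHAC1, which degrades glutathione, had 14.5, 20.97, 22.98 and 24.2 CPM at 24 h and 6.02, 8.74, 8.62 and 9.57 CPM at 2 h, without overlap (1.33 ± 0.30, adjusted p = 0.0206). The call of CHAC1 was lost without 24 h tumor 3 or 4 or 2 h tumor 1, 2 or 3 (adjusted p from 0.0525 to 0.0637), and without 24 h tumor 4 and 2 h tumor 1 (adjusted p = 0.1197). RCOR2, a gene for a corepressor of the LSD1 complex, fell by 1.49 ± 0.28 (adjusted p = 0.00422). C3P1, a pseudogene related to complement C3 whose reads may be shared with its relatives, averaged 20.1 ± 4.66 CPM at 24 h and 4.19 ± 1.34 CPM at 2 h (2.26 ± 0.32, adjusted p = 0.000394).

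Several lists held no called gene. For scale, 1201 of all 18242 genes tested were higher and 1244 lower at an unadjusted p under 0.05. Of 25 genes of the RAS-RAF-MEK-ERK chain itself, 0 differed by edgeR and 2 had an unadjusted p under 0.05, with a median log2 fold change of -0.07. Of 28 ribosome biogenesis genes linked to MYC, 0 differed, 6 had an unadjusted p under 0.05, and the median was 0.26. Against vehicle 14 of the 28 were lower at 24 h and 21 at 2 h, where 13.8% of all genes were lower at 24 h and 13.6% at 2 h. Of 29 interferon-stimulated genes and 16 MHC class I genes, 0 differed, with 5 and 1 at an unadjusted p under 0.05. Of 13 mitochondrially encoded mRNAs, 0 differed at either threshold, and their share of counts was 15.2 ± 7.89% at 24 h and 13.5 ± 2.58% at 2 h (SD, n = 4 each; exact two-sided permutation test, p = 0.886).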

How the data were processed

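RNA-seq of 24 AsPC-1 xenograft tumors, 4 in each of 6 groups read from the titles, was used in the fit, and 8 of them in the comparison. Per the labels' protocols, polyA RNA was made into NEBNext Ultra II libraries and read on a NovaSeq as pairs of 150 bases. The authors deposited estimated counts and TPM values per gene; the submitters' processing notes name bcl2fastq 2.17, FastQC 0.12.1, Salmon 0.14.1 and GRCh38.p13. Which annotation release was used, whether strand was used and whether mouse reads were removed is not given in the sources used here, so mouse reads may add to human genes that resemble them, and antisense pairs cannot be told apart.

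The counts were rounded, filtered with filterByExpr (18242 of 60230 genes kept, with 99.9% of counts) and scaled by TMM. With edgeR 4.0.16 (R 4.3.3), a robust quasi-likelihood test was fitted over all 24 tumors, so that the 6 groups share 1 estimate of the spread, with Benjamini-Hochberg adjustment over all genes tested and a call at an adjusted p under 0.05. Each adjusted p in the text is from this test, or from the alternative fit named beside it. Each log2 fold change is 24 h minus 2 h with its standard error unless vehicle is named. The standard error was derived from the test, as the size of the log2 fold change divided by the square root of its F value. The score is a mean of log2 CPM with a prior count of 2. Genes were also tested with DESeq2 1.42.0, with limma 3.58.1 (voom, and trend on log2(TPM + 1) and log2(TPM + 0.1)), under other scalings and filters, and without each tumor in turn. Of the gene IDs, 60089 had a symbol in the gene name table. The edgeR steps were tested on simulated data.

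Genes named in the text were drawn from 10 MAPK output genes; from the 12 largest rises and falls among called genes that averaged 3 log2 CPM or more without overlap; from each list with a call, where up to 4 called genes a direction and the gene of highest expression without a call were eligible; and, from the G1/S and G2/M lists, the 5 most expressed. CXCL2, CXCL3, CXCL8, CCL20, LDHA, PGK1, EGR1 and NR1D1 were added after their values were seen. The members, the gene lists and the rule were chosen with earlier results of these data known. Some genes that the rule drew are not reported here. Each tumor is a separate animal per the labels.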

Additional observations from a re-analysis of the deposited data

Results flagged for a closer look

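In groups of 4 tumors, the gap between the most distant tumor and its nearest neighbour was set against the group's range, on the log2 scale for CPM values and marker sums, and 9 of 144 groups of values exceeded the 95% critical value of Dixon's test, where chance gives about 1 in 20. In 24 h tumor 3, SPRED2 stood at 53.3 CPM against 44.1 to 45.3 CPM in the other 24 h tumors, and PCNA at 70.9 CPM against 45.5 to 48.1 CPM. In 2 h tumor 1, EGR2 stood at 0.372 CPM against 0.0563 to 0.0612 CPM, values of a few counts or less. In 24 h tumor 1, LDHA was low at 873 CPM against 1778 to 2021 CPM, TM4SF20, a membrane protein gene of the gut list, was low at 62.3 CPM against 162 to 186 CPM, and the share of mitochondrially encoded mRNA was high at 27.0% against 10.3 to 12.5%. The muscle, fat and red cell marker sum was high in 24 h tumor 4, at 1820 CPM against 67.9 to 92.0 CPM. In 2 h tumor 4, PCNA was low at 47.5 CPM against 71.0 to 75.3 CPM, and the MAPK output score was high at 4.40 against 3.98 to 4.05. TM4SF20 was higher at 24 h than at 2 h (log2 fold change 1.51 ± 0.31, adjusted p = 0.0118), with 24 h tumor 1 inside the range of the 2 h tumors. This call was lost without 2 h tumor 2 (adjusted p = 0.0528), without 24 h tumor 4 and 2 h tumor 1 (0.0699), with only the 8 tumors fitted (0.0594) and on both TPM scales (0.0516 and 0.0588). Causes of these values were not tested.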

How the results depend on the processing

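Of the totals between 24 h and 2 h, the 176 genes higher became 359 with DESeq2, 108 and 75 with limma on log2(TPM + 1) and log2(TPM + 0.1), 61 when only the groups compared were fitted, and 95 without 24 h tumor 4 and 2 h tumor 1 (chosen after seeing the data). They became 62 at an adjusted p under 0.01 and 90 with a 2-fold minimum. Leaving out single tumors gave 77 to 341. The 198 lower became 442 with DESeq2, 89 with no low-count filter, 55 and 38 on the 2 TPM scales, 41 with only the groups compared, 56 at 0.01 and 54 at 2-fold. Leaving out single tumors gave 70 to 242. The 374 calls held in full with DESeq2, which made 801, and 91 of the 102 calls with only the groups compared were among them. For 2 h against vehicle the 2438 higher became 1382 with no filter, 1180 and 1224 on the TPM scales, 1158 at 0.01 and 1052 at 2-fold, and 1575 to 2581 without single tumors. The 2477 lower became 1261 at 0.01 and 628 at 2-fold. For 24 h against vehicle the 2493 higher became 1657, 1406, 1402, 1299 and 1209 under the same 5 settings, and the 2518 lower became 1349 at 0.01 and 510 at 2-fold. Of 43 called genes named in the text, 0 changed direction in these fits. Of these, 0 lost the call with DESeq2, 1 with limma-voom, 13 and 16 on the TPM scales, 14 with only the groups compared, 10 without 24 h tumor 4 and 2 h tumor 1, and 0 to 7 without single tumors. Calls lost on both TPM scales included those of CA9, CCL20, CDKN1A, CHAC1, EFNA5, EGR2 and ENO1. GPI, LDHA, NPAS2, PER1, TM4SF20 and VIM also lost theirs on both scales. The calls of AXL, PFKFB4 and RCOR2 were lost on log2(TPM + 0.1) but not on log2(TPM + 1). The difference in MAPK score, 1.45, was 1.34 to 1.55 without single tumors. The difference in mitochondrially encoded share, 1.77 percentage points, was -2.15 without 24 h tumor 1 and up to 3.41 without another single tumor.

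The replicate numbers showed no visible pairing: same-numbered tumors had correlations of -0.24, 0.12, -0.14 and -0.15 of their deviations. Tumors with different numbers had correlations from -0.381 to 0.331. Whether the numbers pair the tumors was not tested. With the replicate block 291 genes were called (142 higher, 149 lower), 277 of them among the 374, and among genes named in the text CA9, PFKFB4 and NPAS2 lost their calls. Depth near 13.87 M counts limits genes of a few CPM, such as EPHA4.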

Other observations

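Genes of cytoplasmic ribosomal proteins were looked at after the falls had been seen, so the list carries no test. Of 77 such genes tested, 24 were lower at 24 h than at 2 h and 0 higher, where 1.09% of all genes were lower, and the median log2 fold change was -0.44 with all 77 below 0. Against vehicle 70 were lower at 24 h and 24 at 2 h (13.8% and 13.6% of all genes), these comparisons sharing tumors with the first. The count of 24 was 41 with DESeq2, 5 with no low-count filter and 14 with the replicate number as a term. On log2(TPM + 1) and log2(TPM + 0.1) it was 5 and 2. It was 14 without 24 h tumor 4 and 2 h tumor 1, and 0 when only the 8 tumors were fitted. It was 14, 10 and 7 without 24 h tumor 2, 3 or 4, and 5, 13 and 4 without 2 h tumor 2, 3 or 4. These are short, abundant transcripts whose pseudogenes can share reads.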
